A study of Homo sapiens with 8 samples.

Results

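MTA2-only regions are stretches of the genome of 697 cells that held a ChIP-seq peak of MTA2 and no peak of 6 other proteins profiled in the same cells. They were chosen by the deposited peak calls: all peaks of the 7 lists (MTA2, Mi2, HDAC2, IKAROS, AIOLOS, OCAB and OCT2) that shared at least 1 bp were joined into regions, and the regions with MTA2 and nothing else were kept. Of 28742 MTA2 regions, 4233 were MTA2-only, 14.7% (95% Wilson interval 14.3 to 15.1), and the other 24509 MTA2 regions served for comparison. MTA2-only regions made up 5.71% of the 74123 merged regions, in which 44.7% held a peak of 1 list alone whatever the protein. Each MTA2-only region held exactly 1 MTA2 peak. The number of regions is fixed by the rule that chose them and is a description.

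The 697 line derives from a human pre-B acute leukaemia. All libraries came from 697 cells kept in RPMI-1640 with fetal bovine serum, and the labels name no treatment. The study has 1 ChIP library for each antibody and 1 input library of genomic DNA without antibody, and its title asks how MTA2 works with OCAB in B-cell development. No antibody has a replicate library, so differences could not be set against replicate spread and no test between proteins was run: every interval below covers counting error over regions, peaks or tags, which are not replicates.

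MTA2 is a scaffold subunit of NuRD, a chromatin complex that joins a nucleosome-remodelling ATPase (the Mi2 proteins) to histone deacetylases such as HDAC2. NuRD has no sequence-specific DNA-binding subunit of its own and is brought to DNA by transcription factors, by methylated DNA and by histone tails. In lymphocytes the zinc-finger factors IKAROS and AIOLOS are the best known of its DNA-binding partners. OCT2 binds octamer sites, and OCAB is its B-cell coactivator. A region with MTA2 and none of these proteins above the calling limits therefore has no called peak of the other 2 profiled NuRD subunits, of the profiled DNA-binding factors or of OCAB.

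MTA2 height, the deposited number of tags in a peak per 10 M tags of the library, was low in most MTA2-only regions. The median was 10.9 in MTA2-only peaks (quartiles 8.32 and 16.2) and 17.1 in other MTA2 peaks (12.3 and 25.4), a ratio of 0.637. The steps between low heights correspond to whole tags at a depth of 22.8 M tags, so the median MTA2-only peak rested on 25 tags (95% Poisson interval 16.2 to 36.9) and the median other MTA2 peak on 39 (27.7 to 53.3). The lowest MTA2-only peaks held 12 tags. The ranges overlapped widely: 918 MTA2-only peaks, 21.7%, reached the median height of the other MTA2 peaks. Low heights where a list stands alone were not particular to MTA2. The same ratio was nearest to 1 for the Mi2 list (0.803) and the OCAB list (0.801), followed by HDAC2 (0.748), OCT2 (0.707), AIOLOS (0.598) and IKAROS (0.408).

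Ordered by height, the MTA2 list lost its MTA2-only peaks step by step. They made up 40.8% of the lowest 10% of MTA2 peaks (Wilson interval 39.0 to 42.6), which ran from 5.25 to 8.32 tags per 10 M. Peaks tied at a border height, such as 8.32, were divided between neighbouring groups by chromosome name and position. Around the middle of the list, at a median height of 14.9, the share was 11.8% (10.7 to 13.0). Among the highest 10% it was 3.72% (3.09 to 4.48), still 107 peaks. Above a height of 50 there were 48 MTA2-only peaks and 1228 other MTA2 peaks.

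**Figure D1:**
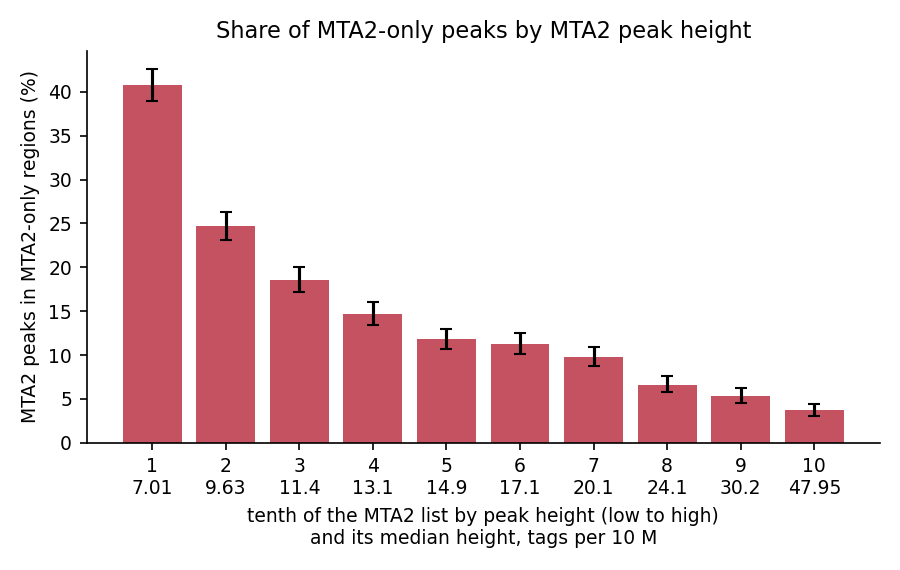
Share of MTA2 peaks that lie in MTA2-only regions (vertical axis, percent) in 10 equal groups of the MTA2 list ordered by peak height (horizontal axis, with each group's median height in tags per 10 M). Peaks tied at a group's border were divided by chromosome name and position. Bars are shares and whiskers 95% Wilson intervals; the share falls from 40.8% in the lowest group to 3.72% in the highest.

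Fold over input did not follow height. The median was 12.6 in MTA2-only peaks (95% order-statistic interval 12.1 to 13.03) and 11.5 in other MTA2 peaks (11.4 to 11.6), so the lower peaks had the higher ratio to input. Input tags in the peak were fewer, with a median of 2 in MTA2-only peaks and 3 in other MTA2 peaks. No input tag at all, which the authors' lists give as 0.5, was found in 13.4% of MTA2-only peaks and in 5.17% of other MTA2 peaks. Height and input moved together here. The MTA2 list holds only peaks with a Poisson p-value over input of at most 9.98e-11, so low peaks enter it only with few input tags. Up to a height of 8 the median fold over input was 15.8 in both groups. Among peaks with heights above 8 and up to 11, the median was 2 input tags in both groups, and the fold over input was 10.2 in MTA2-only peaks and 10.7 in other MTA2 peaks. Above 16 and up to 25, MTA2-only peaks had a median of 5 input tags and a fold of 8.75, and other MTA2 peaks 4 tags and a fold of 9.77. At equal height the higher fold of the MTA2-only peaks was thus gone, apart from peaks above 50, where it was 29.1 against 26.8. No test was run on these classes.

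Fold over the surrounding region compares a peak with the tags of the same library around it. It was lower in MTA2-only peaks, with a median of 6.62 (6.54 to 6.72) against 8.51 in other MTA2 peaks (8.45 to 8.58). It was also lower within each height class from above 8 to 50: it was 6.57 in MTA2-only peaks and 7.51 in other MTA2 peaks above 11 and up to 16, and 9.82 against 11.6 above 25 and up to 50. For peaks up to 8 the values were close, 5.98 and 6.09, and above 50 the order turned, with 27.4 in MTA2-only peaks and 17.8 in other MTA2 peaks. The focus ratio, the fraction of a peak's tags that fall on the strand and side expected for binding at its centre, was nearly equal, with medians of 0.73 in MTA2-only peaks and 0.724 in other MTA2 peaks.

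Median MTA2 height differed with the number of lists in the region and was lowest for MTA2 alone. From MTA2 alone to all 7 lists the median height was 10.9, 12.7, 14.9, 18.0, 23.2, 30.2 and 40.7 tags per 10 M. Fold over the surroundings went up alongside, with 6.62 at MTA2-only peaks and 13.3 where all 7 met. Fold over input had its lowest point in between: it was 12.6 in MTA2-only peaks, 10.7 with 2 lists, 9.68 with 3 and 24.4 with 7. Height therefore put the MTA2-only peaks at the bottom of this order, while fold over input put them above peaks with 2, 3 or 4 lists. Low peaks enter the list only with few input tags, so the order by fold over input is not independent of height.

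**Figure D2:**
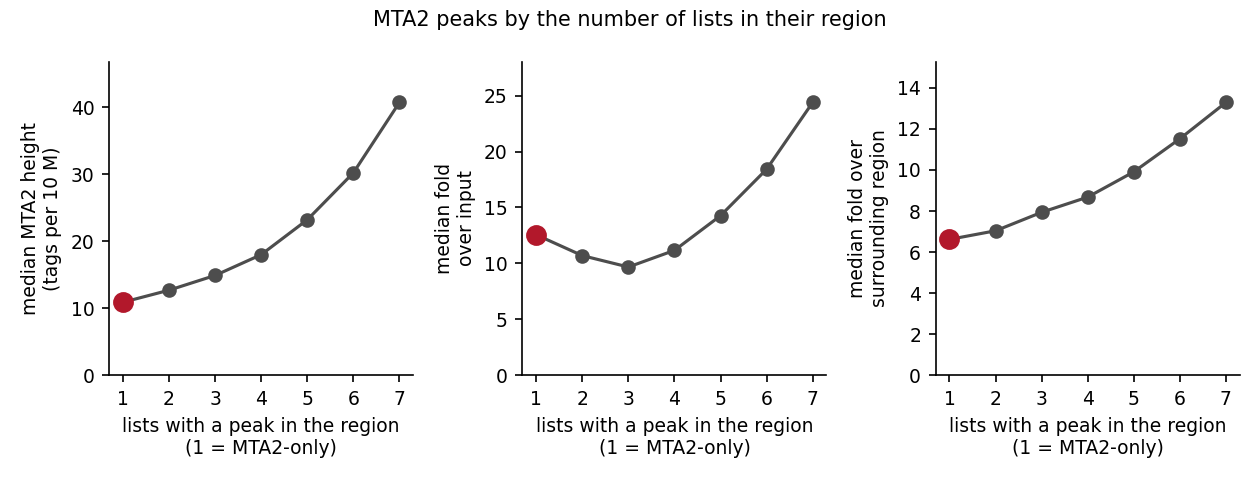
Median MTA2 height (tags per 10 M), median fold over input and median fold over the surrounding region (vertical axes) of MTA2 peaks, by the number of lists with a peak in the region (horizontal axis); the large red point is the MTA2-only class. Height and fold over the surroundings start at 10.9 and 6.62 and climb, whereas fold over input is 12.6 for MTA2-only peaks and dips to 9.68 with 3 lists.

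The next step outward is an MTA2 region with exactly 1 other list. IKAROS was that list in 2068 regions, AIOLOS in 887, HDAC2 in 453, OCT2 in 178, Mi2 in 152 and OCAB in 56. Median MTA2 height was 10.9 where IKAROS was the companion, the same as in MTA2-only regions, and 16.2 where HDAC2 was. AIOLOS as the lone companion went with a median MTA2 height of 15.3. Adding the 2068 regions with IKAROS alone to the MTA2-only regions would give 6301. Merging the lists anew without IKAROS gave 6422, since regions joined only through IKAROS peaks then come apart.

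The 20 highest MTA2-only peaks (chromosomes 1 to 22 and X, at least 4-fold over input) had heights between 77.5 and 238.2. All coordinates are those of build hg19. The highest, on chromosome 5 from 397110 to 397360, had a height of 238.2, from 544 tags (499 to 592), and ranked 38 in the whole MTA2 list. It stood 254-fold over input, with 2 input tags, and 5.4-fold over its surroundings. The second, on chromosome 19 from 57874618 to 57874868, had a height of 164.2, 43.7-fold over input and 109-fold over its surroundings. The next, on chromosome 2 from 1707953 to 1708203, had a height of 158.9, 169-fold over input and 6.07-fold over its surroundings. The chromosome 5 and 2 peaks thus lay in stretches of raised MTA2 signal, and the chromosome 19 peak stood out from its own.

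Both kinds recurred down the list. Of the 20, 15 stood more than 20-fold over their surroundings. Among these were chromosome 13, 48611980 to 48612230 (height 140.1, 31.1-fold over the surroundings), chromosome 11, 57435116 to 57435366 (height 134.4, 51.2-fold), and chromosome 18, 77439368 to 77439618 (height 112.1, 37.95-fold). Next came chromosome 1, 153606397 to 153606647, and chromosome 13, 28024199 to 28024449, both with a height of 108.6. On chromosome 3 the peaks from 52719932 to 52720182 and from 40498592 to 40498842 had heights of 103.3 and 93.3 and focus ratios of 0.911 and 0.957. High focus ratios were also found on chromosome 16, 89557079 to 89557329 (0.974), and chromosome 17, 73178917 to 73179167 (0.962).

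The other 5 of the 20 stood less than 12-fold over their surroundings. Besides the peaks of chromosomes 5 and 2 they were chromosome 19, 796036 to 796286 (height 83.6, 10.98-fold over the surroundings), chromosome 22, 23925998 to 23926248 (height 83.6, 4.11-fold), and chromosome 8, 144480414 to 144480664 (height 83.6, 5.47-fold). Of these 5 peaks, 4 lay within 5 Mb of a chromosome end, as did 9 of the 20 highest and 18.9% of all autosomal MTA2-only regions. The chromosome 22 peak had an IKAROS peak of height 329.3 at 2959 bp, and the chromosome 8 peak an AIOLOS peak of height 188 at 221 bp. The part that neighbouring binding has in these heights was not tested.

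The remaining peaks among the 20 highest also stood more than 20-fold over their surroundings. They lay on chromosome 4 from 44680320 to 44680570 (height 84.5), chromosome X from 15693522 to 15693772 (90.6), chromosome 17 from 76836925 to 76837175 (80.6) and chromosome 13 from 25875569 to 25875819 (78.8). A further peak among the 20, on chromosome 4 from 191043940 to 191044190, is described with the outermost peaks below. On chromosome X the nearest peak of another list was 74277 bp away, the farthest among the 20. Most of the 20 had closer neighbours: 13 had another list within 1000 bp, and 2 lay farther than 20000 bp. Over all MTA2-only regions, 39.3% had another list within 1000 bp. The highest peak, on chromosome 5, had a Mi2 peak at 795 bp, and the chromosome 2 peak an HDAC2 peak at 147 bp.

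**Figure D3:**
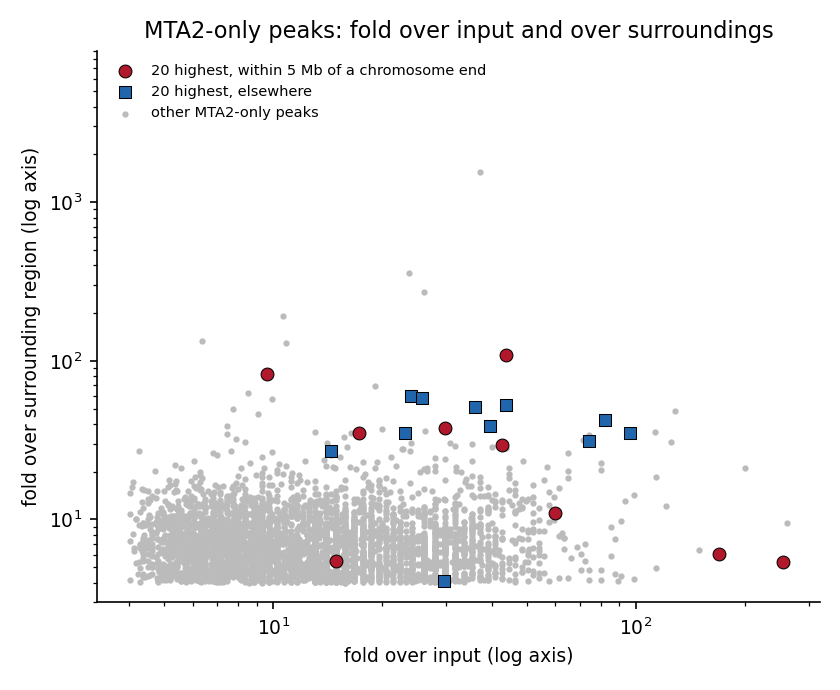
Fold over input (horizontal, log axis) and fold over the surrounding region (vertical, log axis) of the 4233 MTA2-only peaks. Circles and squares mark the 20 highest peaks within and beyond 5 Mb of a chromosome end; 15 of the 20 exceed 20-fold over their surroundings, and the peaks of chromosomes 5 and 2 at the far right stand 254-fold and 169-fold over input but 5.4-fold and 6.07-fold over their surroundings.

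By fold over input, the 5 leading regions were chromosome 8, 300537 to 300787 (260.5-fold, no input tag), the chromosome 5 and chromosome 2 peaks above, chromosome 2, 227700649 to 227700899 (199-fold, no input tag), and chromosome 1, 202777430 to 202777680 (149-fold, no input tag). Where the input held no tag, the fold rests on the value of 0.5 in its place. At the other end, 21 regions shared the lowest height of 5.25, which is 12 tags (6.2 to 21.0). The first 5 of them in order of chromosome name, on chromosomes 1, 10, 12, 15 and 16, had no input tag and a fold of 22.3. With 12 tags a peak enters the list only with few input tags, so these shared values are in part set by the calling limit.

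MTA2-only did not mean remote from the other proteins. The nearest peak of another list lay a median of 2436 bp away, edge to edge (2164 to 2785). It lay within 100 bp for 448 MTA2-only regions, 10.6% (9.69 to 11.6), and within 1000 bp for 1665, 39.3% (37.9 to 40.8). More than 20000 bp of distance separated 557 regions from it, and a further 64 regions lay over 100000 bp away. For other MTA2 peaks, counting peaks outside their own region, the share within 1000 bp was 27.7% (27.1 to 28.2). A peak caller keeps a minimum spacing between peaks of 1 list, so the 2 shares do not have the same room near the peak. Against the other NuRD subunits found alone, the share of 39.3% lay between 50.1% of HDAC2-only regions (48.1 to 52.1) and 30.7% of Mi2-only regions (29.4 to 32.1). These shares rest on unlike sets of neighbours: the 28760 MTA2 peaks count as another list for HDAC2-only and Mi2-only regions alone. The share within 1000 bp followed the overlap rule: it was 62.3% where peak centres within 100 bp counted as shared and 12.4% where regions were joined over gaps of up to 500 bp. By centres, peaks that overlapped another list with centres more than 100 bp apart became members, and all of these counted as within 1000 bp. With gaps joined, no member could have another list within 500 bp. Both shares are thus in part set by the rule. It was 18.1% with the 4000 highest peaks of each list.

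**Figure D4:**
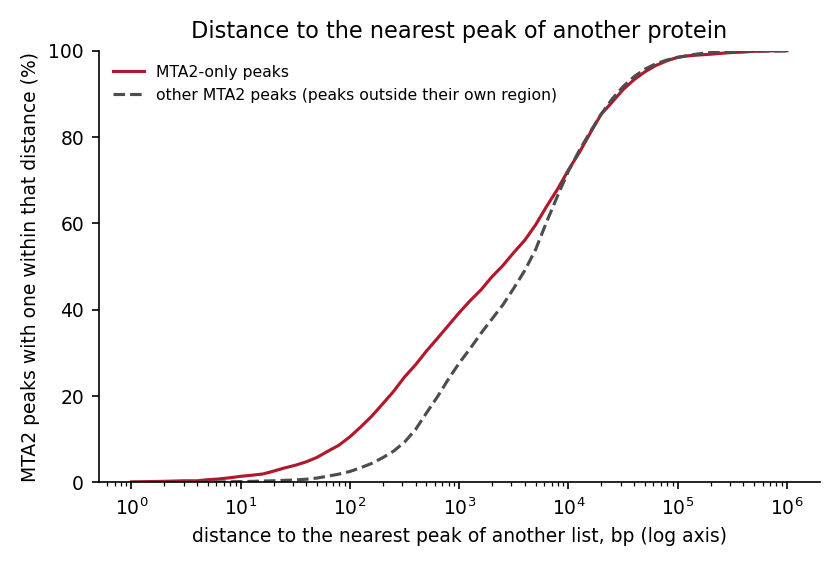
Share of MTA2 peaks (vertical axis, percent) with a peak of another list within a given distance (horizontal axis, bp, log scale), for MTA2-only peaks (solid) and for other MTA2 peaks with their own region left out (dashed). Within 1000 bp the shares are 39.3% and 27.7%, and by 20000 bp the curves have met, at 85.3% and 85.4%.

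The neighbour was most often IKAROS. It was the nearest other protein for 2001 MTA2-only regions, 47.3%, followed by AIOLOS for 1059, HDAC2 for 561, Mi2 for 325, OCT2 for 162 and OCAB for 125. That order is the order of the list lengths, which ran between 53948 peaks for IKAROS and 4440 for OCAB. IKAROS lay within 1000 bp of 31.9% of MTA2-only regions (30.5 to 33.3), HDAC2 within 1000 bp of 12.6% (11.6 to 13.6) and Mi2 of 5.25% (4.61 to 5.96). The neighbouring IKAROS peaks had a median height of 18.4, against 20.5 over the whole IKAROS list. Where another list lay within 100 bp, the neighbouring region held an MTA2 peak of its own in 9 of 448 cases. At distances above 500 and up to 1000 bp it did so in 163 of 378. MTA2 peak centres of the list were never closer than 374 bp, and 20 pairs were closer than 500 bp. This spacing limits the room for a second MTA2 peak in a region within 100 bp. Of those 448 neighbouring regions, 257 held 2 or more lists. The part of the spacing in the 9 of 448 was not tested.

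Regions with a close neighbour and regions far from any differed in height. Median MTA2 height was 14.9 with a neighbour within 100 bp (14.0 to 15.8), 12.7 between 500 and 1000 bp, 8.76 between 5000 and 20000 bp and 8.32 beyond 20000 bp up to 100000 bp. Input tags fell in the same order, with medians of 4, 3, 1 and 1, and fold over input was 9.3, 10.0, 14.0 and 14.0. The focus ratio went from 0.674 in the closest class up to 0.758 in the class beyond 20000 bp. The close regions thus had the higher MTA2 peaks and the lower focus ratios. The part of input in these heights was not tested.

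Some regions met or missed the rule by a single base. In 5 MTA2-only regions the edge of another list's peak was 1 bp away, among them chromosome 1, 44302182 to 44302432 (height 33.3, beside an OCAB peak of height 33), and chromosome 15, 44084371 to 44084621 (height 39.4, beside AIOLOS). The other 3 were chromosome 14, 39018785 to 39019035 (height 8.32), chromosome 3, 138553027 to 138553277 (14.4), and chromosome 4, 166105573 to 166105823 (6.13). Just outside, 6 other MTA2 regions overlapped another list by 1 bp, with MTA2 heights between 10.1 and 217.6. The highest was chromosome 1, 36689827 to 36690077, with an MTA2 height of 217.6 and an AIOLOS height of 18.7. The median height of the 6 was 14.65. Within 50 bp of the limit, 246 MTA2-only peaks had a median height of 15.55 and 321 other MTA2 peaks 14.4.

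MTA2-only regions were spread over all autosomes (4145 regions), chromosome X (86) and chromosome Y (2), and included none of the 16 MTA2 peaks on unplaced contigs. Among chromosomes 1 to 22 and X, their share of the MTA2 regions was highest on chromosome 19, with 301 of 1592 (18.9%, 17.1 to 20.9), and lowest on chromosome 6, with 162 of 1290 (12.6%, 10.9 to 14.5).

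MTA2-only regions were more often near chromosome ends than other MTA2 regions. A region was counted as near an end when it started below 5 Mb or ended within 5 Mb of the last peak of any list; 17 of the 22 autosomes had peaks below 5 Mb. Of MTA2-only regions on autosomes, 18.9% lay there (17.8 to 20.2), against 14.4% of other MTA2 regions (13.95 to 14.8), a difference of 4.55 points (Newcombe interval 3.3 to 5.85), and 12.5% of all merged autosomal regions. HDAC2-only regions reached 9.88% (8.76 to 11.1) and Mi2-only regions 8.32% (7.53 to 9.18), so MTA2-only regions exceeded them by 9.06 and 10.6 points. Within 1 Mb the shares were 5.57% of MTA2-only and 3.52% of other MTA2 regions.

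Read the other way, the MTA2-only share among MTA2 regions was 21.4% in the outermost Mb (19.1 to 24), 21.5% between 1 and 2 Mb (19.1 to 24.2), 15.7% between 2 and 5 Mb and 13.9% beyond 40 Mb (13.2 to 14.6). On 17 of the 22 autosomes the share near the ends was above that of the interior. Chromosome 1 had 26.7% near its ends and 13.4% inside, and chromosome 11 had 24.8% and 14.05%. Chromosome 15 went the other way, with 10.3% and 13.8%. Chromosome 19, with the highest share, did not carry the difference: near the ends and inside, the shares were 18.5% and 14.04% over all autosomes, and 18.3% and 13.8% without chromosome 19.

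**Figure D5:**
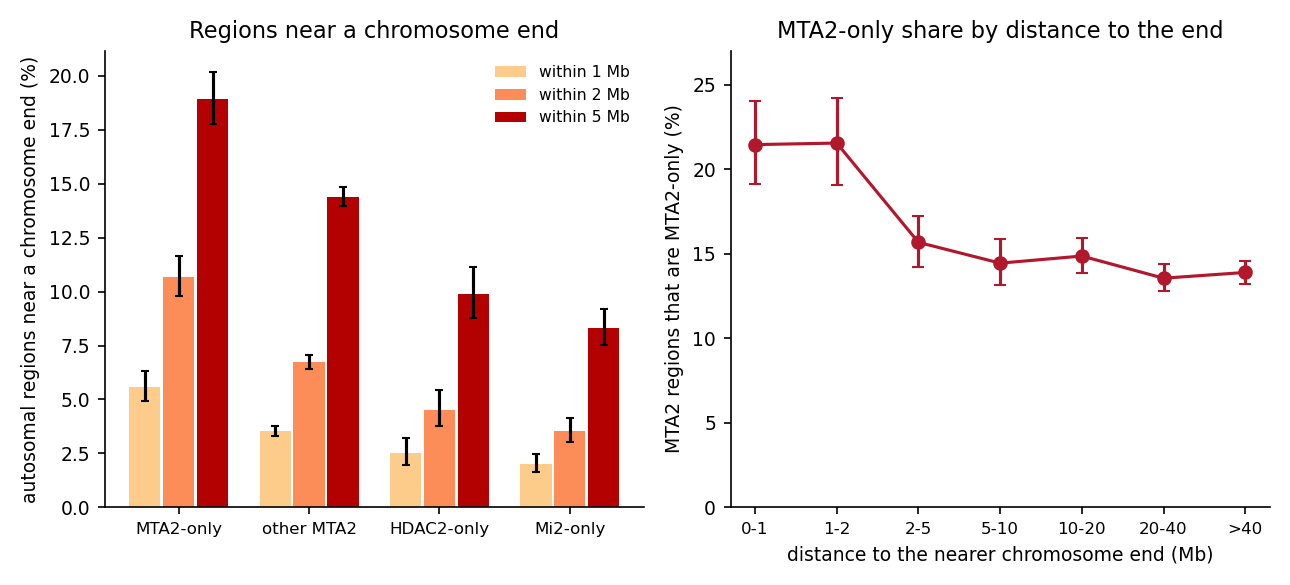
Left, share of autosomal regions within 1, 2 or 5 Mb of a chromosome end (vertical axis, percent) for MTA2-only, other MTA2, HDAC2-only and Mi2-only regions. Right, share of MTA2 regions that are MTA2-only (percent) by distance to the nearer chromosome end in Mb. Whiskers are 95% Wilson intervals; MTA2-only regions have 18.9% within 5 Mb against 14.4% of other MTA2 regions, and the share on the right is 21.4% in the outermost Mb and 13.9% beyond 40 Mb.

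The difference was also seen within height classes, and MTA2 peaks near the ends were higher. The median near the ends was 12.7 in MTA2-only peaks and 18.8 in other MTA2 peaks, and inside it was 10.9 and 16.6. Among peaks up to a height of 8, 12.8% of MTA2-only and 9.49% of other MTA2 peaks were near an end, a difference of 3.29 points (0.678 to 5.995). Above 11 and up to 16 the shares were 21.8% and 12.8%, a difference of 9.06 points (6.5 to 11.8). Above 25 and up to 50 they were 26.4% and 17.1% (difference 9.32, 4.22 to 15.1). In the class above 50, with 47 MTA2-only peaks, the difference of 6.8 points had an interval from -4.6 to 21.2. By distance to the nearest peak of another list, the share of MTA2-only regions near an end was 13.1% within 100 bp, 17.8% up to 500 bp, 17.9% up to 1000 bp, 22.1% up to 5000 bp, 21.4% up to 20000 bp, 16.4% up to 100000 bp and 16.4% beyond that. Gene density and base composition, which also vary along chromosomes, were not analysed here.

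The outermost peaks of the chromosomes stood apart, in a pattern singled out after its values were seen. Below position 20000 of chromosomes 1 to 22 and X, the 7 lists held 6 peaks in all. All 6 were MTA2 peaks in MTA2-only regions, and the other 6 lists held 0 peaks there. They started between positions 9927 and 10351. Over all 23 chromosomes, the first peak of any list belonged to an MTA2-only region on 7, to another MTA2 region on 0 and to another list on 16. Human chromosomes end in telomere repeats.

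Of these 6 peaks, chromosome 18, 10022 to 10272, had a height of 46.9 (107 tags, 87.7 to 129). Chromosome 4, 9927 to 10177, had a height of 46, and chromosome 1, 10055 to 10305, a height of 45.1. Heights on chromosomes 5 (10351 to 10601), 7 (10065 to 10315) and 9 (10239 to 10489) were 24.1, 21 and 10.9. Fold over input was modest in all 6, between 6.38 and 10.9, with 3 to 10 input tags, against a median of 2 over all MTA2-only peaks. Fold over the surroundings lay between 49.6 and 190.5 in these 6, against a median of 6.62 over all MTA2-only peaks, and some other MTA2-only peaks reached such values too, among them chromosome 19, 57874618 to 57874868 (109-fold). The surroundings span 10000 bp, and no list held a peak before position 9927. How much of them could hold tags was not tested, so the folds of these 6 may not be comparable with that median.

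On the long arms the last peak of any list belonged to an MTA2-only region on 6 of 23 chromosomes, to another MTA2 region on 3 and to another list on 14. The MTA2-only peak of chromosome 4, 191043940 to 191044190, had a height of 103.8, from 237 tags (208 to 269), 9.59-fold over 23 input tags and 82.9-fold over its surroundings. No other MTA2-only peak had more input tags. The last peaks of chromosome 10, 135524610 to 135524737, and chromosome 19, 59118807 to 59118986, had heights of 17.1 and 17.5. These were the only peaks of the MTA2 list narrower than the standard 250 bp, with widths of 127 and 179 bp. The chromosome 19 peak stood 37.2-fold over input and 1553.6-fold over its surroundings. How much of the surroundings of these last peaks could hold tags was not tested either, so their folds may not compare with other peaks. How reads from repeats were placed is not given in the sources used here, and the part of the raised input in these peaks was not tested.

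Spacing between MTA2-only regions varied along the genome. The nearest other MTA2-only region lay a median of 113580 bp away, and within 10000 bp for 7.21% (6.47 to 8.02), a share that was 12.7% with peak centres within 100 bp counted as shared and 3.37% with 4000 peaks per list. Other MTA2 regions were close by in similar shares: 37.99% of MTA2-only peaks (36.5 to 39.5) and 39.5% of other MTA2 peaks (38.9 to 40.1) had a peak of another MTA2 region with companions within 10000 bp. The 5 windows of 1 Mb with the most MTA2-only regions lay on chromosome 19 between 1 and 2 Mb (16 of 52 MTA2 peaks), chromosome 9 between 139 and 140 Mb (15 of 54), chromosome 1 between 2 and 3 Mb (14 of 37), chromosome 16 between 0 and 1 Mb (14 of 42) and chromosome 19 between 0 and 1 Mb (14 of 48). All 5 windows lay within 5 Mb of a chromosome end. Their MTA2-only shares ran from 27.8% to 37.8% of MTA2 peaks, and the share over all MTA2 regions was 14.7%. The windows were picked for their MTA2-only counts, so these shares and positions are no separate support for the difference near chromosome ends.

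The size of the set depends on the criteria. There were 6805 MTA2-only peaks when only peak centres within 100 bp counted as shared and 802 among the 4000 highest peaks of each list, where the median height ratio was 0.87 and the median MTA2-only peak had 5 input tags.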

How the data were processed

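ChIP-seq peak lists of 7 proteins in 697 cells were used as deposited, 1 list per library, on build hg19. The submitters' processing notes name Bowtie2 2.3.2.2, HOMER 4.9.1 and CASAVA, in version 1.4 for HDAC2 and 1.8.2 for the others; only the HDAC2 list states its calling limits. The deposited values are HOMER's. Height is a signal, tags per 10 M tags of the library, made by the authors. Total tags are deposited as whole-number counts in 5 lists and, for MTA2 and IKAROS, as a signal scaled to the input's depth. The authors deposited fold columns as ratios, a focus ratio as a fraction, a peak score and Poisson p-values; the highest p-value over input in the MTA2 list was 9.98e-11. The MTA2 library held 22.8 M tags, recovered from the steps between heights: all heights below 30 were whole tags within 0.15.

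Peaks sharing 1 bp were merged. Shares have Wilson, differences Newcombe, tags exact Poisson and medians order-statistic 95% intervals, which cover counting error only; PCR reads without molecular identifiers are not independent molecules. No p-value was computed. The named regions are the 20 highest (chromosomes 1 to 22, X; 4-fold over input or more) and 5 each by fold over input, lowest height, distance to the rule's limit, and 1 Mb windows. The members, comparisons and rules were chosen with earlier results of these data known. Merging and distance code was checked on made-up peaks. No genome or annotation of build hg19 was at hand, so gene, promoter, motif and sequence results were not run and the gene lists were not used here. Python 3.11.15, numpy 2.4.6, pandas 2.3.3, scipy 1.17.1 and matplotlib 3.10.9 were used.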

Additional observations from a re-analysis of the deposited data

How the results depend on the processing

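The MTA2-only regions, 4233 in all and 14.7% of MTA2 regions, numbered 6805 (23.7%) with peak centres within 100 bp counted as shared, 802 (20.1%) with the 4000 highest peaks of each list and 6422 (22.3%) without the IKAROS list. The share was 10.5% with gaps of up to 500 bp joined, 16.3% at a p-value limit of 1e-10, 18.6% at 8-fold over input, and 15.4%, 16.6%, 18.2% and 15.4% without Mi2, HDAC2, AIOLOS and OCT2. Leaving out a list can only add MTA2-only regions, and so can the p-value limit, which every MTA2 peak passes. The ratio of median heights was 0.608 with gaps joined, 0.703 by centres, 0.583 at 8-fold, 0.87 with 4000 peaks, 0.623 without IKAROS and 0.69 without AIOLOS, and below 1 in all 12 alternatives. The share near a chromosome end was 17.5% by centres, 23.4% with 4000 peaks, 17.5% without IKAROS and 10.7% at 2 Mb. It exceeded that of other MTA2 regions by 3.15 (without IKAROS) to 5.53 points (gaps joined) in all 13 alternatives, with 3.21 by centres. Limiting the lists to chromosomes 1 to 22 and X, counted among the 13, cannot change these autosomal values. The cause of these shifts was not tested beyond the alternatives' own construction. At 25 tags for the median MTA2-only peak, depth limits which low peaks pass, and a list without a peak does not show that the protein is absent. No paired analysis was possible because each antibody has 1 library. The planned gene, promoter and motif alternatives were not run.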
